A study of Homo sapiens with 6 samples.

Results

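Cancer-testis antigens are proteins of the male germ line whose genes are silent in most other adult tissues and become active again in many tumors. Most of these genes lie on chromosome X in families of near-identical copies, and methylation of CG dinucleotides in their promoters is known to keep them silent in somatic cells. They are studied as targets of antitumor T cells, and several of them act as partners of ubiquitin ligases or as regulators of transcription. Their RNA was examined here in K562, a human leukemia cell line derived from chronic myeloid leukemia in blast crisis, after knockdown of NPM (nucleophosmin, encoded by NPM1), a nucleolar histone chaperone.

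Members were the genes whose symbol starts with MAGEA, MAGEB, MAGEC, GAGE, SSX, PAGE, XAGE, CT45A or CTAG directly followed by a digit, with PRAME and CTCFL added. The rule found 61 of the 20802 genes measured: 12 MAGEA, 10 GAGE, 10 SSX, 8 MAGEB, 6 PAGE, 5 XAGE, 4 CT45A and 3 MAGEC genes, PRAME, CTCFL, and SSX2IP. The rule matched no CTAG row. SSX2IP is named for a protein that binds an SSX antigen and is no antigen itself, so 60 genes were antigen members. Of these, 35 had 1 RPM or more in at least 2 of the 6 libraries and are reported. RPM, the unit of the deposited values, is the read count of a gene's amplicon scaled to the same total in every library.

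The study compared K562 cells carrying shNPM300, a short hairpin RNA against NPM1 (NPMKD, 3 libraries), with K562 cells carrying a scrambled hairpin (shSc, 3 libraries). Both were made by lentiviral infection with pLKO.1-puro vectors and kept under puromycin, and the methods describe them as stable clones. Since 1 hairpin against NPM1 was used in this experiment, an effect of losing NPM and any other difference between the clones cannot be told apart. RNA was measured by Ion AmpliSeq, in which 1 short amplicon stands for each gene, so levels depend on how well each amplicon is amplified, and RPM values of different genes are shares of reads and not an order of transcript abundance. The libraries are called triplicates, and since separate cultures are not mentioned, p-values cover only a spread that may be technical.

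The libraries held 8842344 to 18981902 reads, and 3 reads, taken here as the limit of detection, correspond to 0.158 to 0.339 RPM (counting error only). The study kept 3 NPMKD and 2 shSc libraries and does not say which shSc library was set aside. Replicate 3 of shSc stood apart: its correlation with the other libraries was 0.839 to 0.879, against 0.922 to 0.972 among the other 5, and 16619 genes were above 0 in it, against 13893 to 14600 in the others. The comparison here therefore rests on NPMKD replicates 1, 2 and 3 against shSc replicates 1 and 2, tested by limma on log2(RPM + 0.5) with p adjusted by Benjamini-Hochberg over 11554 genes, and values with all 6 libraries are given beside it. NPM1 was at 1302, 1168 and 655 RPM in NPMKD, against 3856, 2968 and 3146 RPM in shSc, with a log2 fold change of -1.76 over the 5 libraries (standard error, SE, 0.35; adjusted p = 0.158 by limma). This pointed the way of the labels but did not pass the threshold of 0.05. Erythroid and blast crisis markers of K562 were present, with all 16 listed genes among those tested.

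Members of a family share reads, because an amplicon can match several copies. The panel listed more than 1 gene for the amplicons of 20 of the 35 reported antigen members, and 1 gene for that of SSX2IP. The amplicon named GAGE12J was listed for 11 genes, that named XAGE1C for 5 and that named GAGE12C for 4. Coding sequences of the 10 GAGE members had a median pairwise identity of 97.7%, those of CT45A1, CT45A3 and CT45A4 were 99.5% to 99.8% identical, and MAGEA2 and MAGEA2B, SSX2 and SSX2B, and SSX4 and SSX4B were identical (100%). Such rows are therefore best read as reads of a group of copies. In the annotation on GRCh37, 32 of the 34 reported members found there lay on chromosome X, PRAME lay on chromosome 22 and CTCFL on chromosome 20. The coding part lay in 1 exon for 9 of these 34 genes and in more than 1 exon for 24, and MAGEA5 was annotated as a pseudogene (MAGEA5P).

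Promoters show how close the copies are, and they hold the CG dinucleotides at which methylation acts. Sequences are those of RefSeq on GRCh38.p14, from 250 bases before to 50 bases after each gene's start. The GAGE promoters of 2 members are shown because the rows differed in these libraries: GAGE12J (chrX:49321787-49322086, plus strand), whose row took many reads, and GAGE13 (chrX:49331332-49331631, plus strand), whose row took few. The only base of GAGE13 that differs from GAGE12J over the 300 bases is in capitals, and the windows of GAGE12C, GAGE12H and GAGE2A were identical to that of GAGE12J.
GAGE12J: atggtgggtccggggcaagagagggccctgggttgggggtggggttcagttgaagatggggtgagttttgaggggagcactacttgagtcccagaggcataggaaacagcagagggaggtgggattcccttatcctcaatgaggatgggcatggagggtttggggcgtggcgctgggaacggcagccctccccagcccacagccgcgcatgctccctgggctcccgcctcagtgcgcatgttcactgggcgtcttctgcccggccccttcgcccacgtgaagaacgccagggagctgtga
GAGE13: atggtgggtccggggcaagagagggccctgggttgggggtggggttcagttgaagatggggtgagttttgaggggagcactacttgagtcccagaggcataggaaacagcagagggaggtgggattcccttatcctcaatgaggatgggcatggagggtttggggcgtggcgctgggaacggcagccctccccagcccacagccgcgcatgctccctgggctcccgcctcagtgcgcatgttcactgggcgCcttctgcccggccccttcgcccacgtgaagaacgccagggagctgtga

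The SSX promoters are shown because members of this family had the highest and some of the smallest fold changes, with each CG in capitals: SSX1 (chrX:48255142-48255441, plus strand), SSX2B (chrX:52751002-52751301, plus strand) and SSX4 (chrX:48383289-48383588, plus strand).
SSX1: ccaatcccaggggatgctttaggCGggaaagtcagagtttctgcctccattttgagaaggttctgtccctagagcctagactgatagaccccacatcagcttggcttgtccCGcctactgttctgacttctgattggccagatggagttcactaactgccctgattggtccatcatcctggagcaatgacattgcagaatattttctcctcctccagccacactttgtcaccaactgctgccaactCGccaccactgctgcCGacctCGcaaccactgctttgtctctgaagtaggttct
SSX2B: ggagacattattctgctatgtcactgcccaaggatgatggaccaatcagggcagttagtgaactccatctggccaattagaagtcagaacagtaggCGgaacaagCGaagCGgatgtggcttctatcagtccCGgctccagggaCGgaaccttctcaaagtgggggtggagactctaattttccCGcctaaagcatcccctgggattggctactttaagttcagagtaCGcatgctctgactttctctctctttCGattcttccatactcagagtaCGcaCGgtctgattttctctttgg
SSX4: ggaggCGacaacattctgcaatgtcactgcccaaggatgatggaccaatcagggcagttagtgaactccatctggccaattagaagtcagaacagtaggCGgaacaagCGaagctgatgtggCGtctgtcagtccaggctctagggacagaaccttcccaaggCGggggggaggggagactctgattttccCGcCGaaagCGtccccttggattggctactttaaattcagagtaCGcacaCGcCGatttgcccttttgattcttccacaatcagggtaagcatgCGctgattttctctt

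The motif CG, which reads the same on both strands, occurred 5 times in the SSX1 window, 10 times in that of SSX2B and 12 times in that of SSX4, against a median of 14 over 27305 promoters of the same length. The SSX4B window also held 10, with a log2 fold change of -0.07 against 0.98 for SSX2B, and no promoter was found for SSX3. A relation of CG number to fold change was not tested. At least 5 CGs were found in 69.5% of all promoters, at least 10 in 56.0% and at least 12 in 52.9%. The promoters of MAGEA3 (chrX:152698544-152698843, plus strand in this build) and MAGEA6 were identical over 300 bases, with 19 CGs each, a number that 43.0% of all promoters reach, and the MAGEA3 sequence stands for both.
MAGEA3: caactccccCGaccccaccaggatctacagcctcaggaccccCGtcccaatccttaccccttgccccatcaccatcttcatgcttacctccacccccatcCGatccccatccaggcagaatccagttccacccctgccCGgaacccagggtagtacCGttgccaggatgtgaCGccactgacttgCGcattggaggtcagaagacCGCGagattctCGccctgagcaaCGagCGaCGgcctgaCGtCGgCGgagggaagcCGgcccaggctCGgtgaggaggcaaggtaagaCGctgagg

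Other reported members ranged widely, with 1 CG for MAGEB1, 13 for PRAME and for the GAGE windows other than GAGE10, and 19 for CTCFL. Their median was 13 over 27 reported members with a promoter in the table, SSX2IP left out, and 10 over 21 members that were not reported. DNA methylation was not measured in these libraries.

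No antigen member passed the main test. Of 34 tested members 0 had an adjusted p of 0.05 or less by limma, while 15 of 11554 genes did (0.13%), a share at which 34 genes would hold fewer than 1. At an unadjusted p of 0.05 or less there were 6 members and 825 genes. On the recovered reads edgeR called 0 members and 11 genes (0.0952%), and DESeq2 called 1 member, SSX1, and 190 genes (1.64%). A limma fit with a replicate block called 7 of the 34 members and 1698 of the 11554 genes. That fit pairs libraries by replicate number, which the main fit does not, and NPMKD replicate 3 has no partner in it. With any 1 of the 5 libraries left out, 0 members and 0 to 5 genes passed. The fold change was positive for 22 of the 34 members and for 50.8% of all tested genes, with a median of 0.15 over the members and 0.01 over all genes on the log2 scale, and members ranged from -1.51 (GAGE13) to 2.08 (SSX1). Both ends of this range, and other low rows named below, entered the test only through the group where they were high. With all 6 libraries 0 of 35 members passed, against 3 of 11723 genes (0.0256%), 3 members and 801 genes were at an unadjusted p of 0.05 or less, and the median was 0.07. The median over the members rested on single libraries: it was 0.50 without shSc replicate 2 and 0.01 without NPMKD replicate 2.

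A count of members whose groups did not overlap was read against the same count over all genes. Over the 5 libraries 7 of 34 members were higher in every NPMKD library than in both shSc libraries (CTCFL, MAGEB1, MAGEC1, MAGEC2, SSX1, SSX2B and SSX3), against 12.3% of all tested genes. Over the same libraries 2 members, GAGE13 and GAGE2E, were lower without overlap, against 10.4% of all tested genes. In these 5 libraries SSX1, SSX2B, SSX3 and MAGEB1 reached 1 RPM in NPMKD alone, and GAGE13 did so in shSc alone. Such rows entered the test only through the group where they were high. Their lack of overlap was thus partly set by the filter, and no conclusion on the members is drawn from these counts. With shSc replicate 3 added, 4 of 35 members remained higher (CTCFL, SSX1, SSX2B and SSX3), against 9.41% of genes, and GAGE13 and GAGE2E remained lower, against 4.54% of genes.

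**Figure D1:**
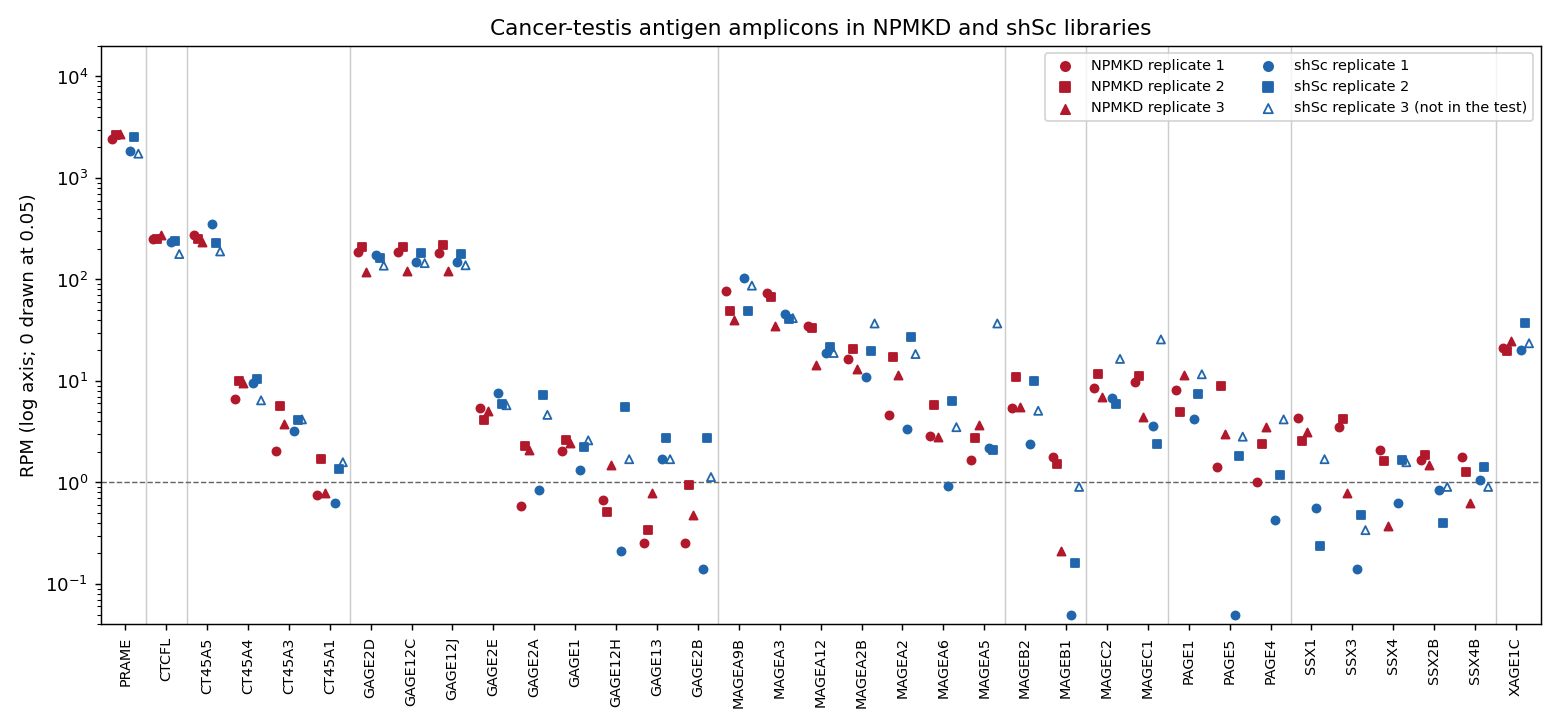
RPM of the 35 reported antigen amplicons in each library (log axis, 0 drawn at 0.05), NPMKD in red left of shSc in blue, with shSc replicate 3 hollow and a dashed line at 1 RPM; families are separated by vertical lines. PRAME lies above all other amplicons in each library, 3 GAGE rows lie between 118.955 and 216.428 RPM, and the SSX rows lie between 0.141 and 4.292 RPM.

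PRAME and CTCFL have no copies among the members and lie outside chromosome X. PRAME encodes a subunit that gives a cullin-based ubiquitin ligase its substrates and also represses retinoic acid receptor signaling. It was at 2414, 2634 and 2709 RPM in NPMKD, against 1830 and 2528 RPM in shSc replicates 1 and 2 and 1736 RPM in shSc replicate 3. The NPMKD values lay close together and overlapped with shSc replicate 2. PRAME averaged 2586 ± 153 RPM over the 3 NPMKD libraries and 2179 ± 494 RPM over the 2 shSc libraries (mean ± SD), with a log2 fold change of 0.26 (SE 0.27, adjusted p = 0.902 by limma). That value was 0.03 without shSc replicate 1 and 0.50 without shSc replicate 2. PRAME alone took 58.3% to 71.3% of all antigen RPM in a library.

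CTCFL, also known as BORIS, is a paralog of the insulator protein CTCF and is active in the testis. Its level was 250.6, 250.3 and 276.4 RPM in NPMKD, against 236.4, 237.6 and 178.1 RPM in shSc replicates 1, 2 and 3. Every NPMKD library was above every shSc library, and the distance was small: a log2 fold change of 0.13 (SE 0.21, adjusted p = 0.935 by limma) over 5 libraries and 0.26 (adjusted p = 0.766) over 6. CTCF itself was at 108.6, 72.7 and 71.9 RPM in NPMKD, against 94.4, 50.0 and 55.2 RPM in shSc, and its groups overlapped (log2 fold change 0.27, adjusted p = 0.922).

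The SSX family encodes nuclear proteins that repress transcription and that are known from synovial sarcoma, where a part of SSX1, SSX2 or SSX4 is fused to SS18, a subunit of a chromatin remodeling complex. Of 10 members 5 were reported and tested, 0 passed, and 3 were higher in NPMKD without overlap, against 12.3% of all tested genes. Those 3 (SSX1, SSX2B and SSX3) entered the test only through their NPMKD values, so this count was partly set by the filter. All levels were low, so each value rests on few reads. SSX1 was at 4.29, 2.56 and 3.11 RPM in NPMKD, which are 51, 30 and 59 reads, against 0.564 and 0.239 RPM in shSc replicates 1 and 2, which are 8 and 3 reads, and 1.70 RPM (15 reads) in shSc replicate 3. The lowest NPMKD library was above the highest shSc library, and shSc replicate 3 lay between the groups. SSX1 averaged 3.32 ± 0.89 RPM over the 3 NPMKD libraries and 0.402 ± 0.230 RPM over the 2 shSc libraries (mean ± SD), a ratio of 8.27, with a log2 fold change of 2.08 (SE 0.41, unadjusted p = 0.0011, adjusted p = 0.158 by limma). Adding shSc replicate 3 gave a value of 1.65 on the log2 scale (adjusted p = 0.587). It passed by DESeq2 on the recovered reads (log2 fold change 3.02, adjusted p = 0.0075; 0.000516 to 0.587 over the alternatives).

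SSX3 shares 89.5% of its coding bases with SSX1, as SSX4 does, and 95.4% with SSX2B. It was at 3.53, 4.18 and 0.790 RPM in NPMKD (42, 49 and 15 reads), against 0.141, 0.479 and 0.339 RPM in shSc replicates 1, 2 and 3 (2, 6 and 3 reads). NPMKD replicate 3 lay much nearer to the shSc libraries than the other NPMKD libraries did. Its log2 fold change was 1.87 (SE 0.62, adjusted p = 0.531 by limma; 0.000123 to 0.669 over the alternatives), and 1.84 over 6 libraries. SSX2B, whose amplicon is listed for SSX2 as well, was at 1.68, 1.88 and 1.48 RPM in NPMKD, against 0.846, 0.399 and 0.905 RPM in shSc replicates 1, 2 and 3. The groups did not overlap in 6 libraries. Its log2 fold change was 0.98 over 5 libraries (SE 0.40, adjusted p = 0.675 by limma) and 0.86 over 6 (adjusted p = 0.723). The row named SSX2 held 0.339 RPM or less in each library and was not reported.

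SSX4 and SSX4B, which share their amplicons, differed from these rows. SSX4 was at 2.10, 1.62 and 0.369 RPM in NPMKD, against 0.634, 1.68 and 1.58 RPM in shSc replicates 1, 2 and 3. SSX4B was at 1.77, 1.28 and 0.632 RPM in NPMKD, against 1.06, 1.44 and 0.905 RPM in shSc. Both overlapped between groups, and their log2 fold changes were 0.10 and -0.07. Summed over both rows the values were 3.87, 2.90 and 1.00 RPM in NPMKD, against 1.69, 3.11 and 2.49 RPM in shSc. The difference between the SSX1 and SSX4 responses was not tested. SSX2IP, which is no antigen, was at 51.2, 47.9 and 61.6 RPM in NPMKD, against 49.8, 37.6 and 43.4 RPM in shSc (log2 fold change 0.30, adjusted p = 0.885).

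**Figure D2:**
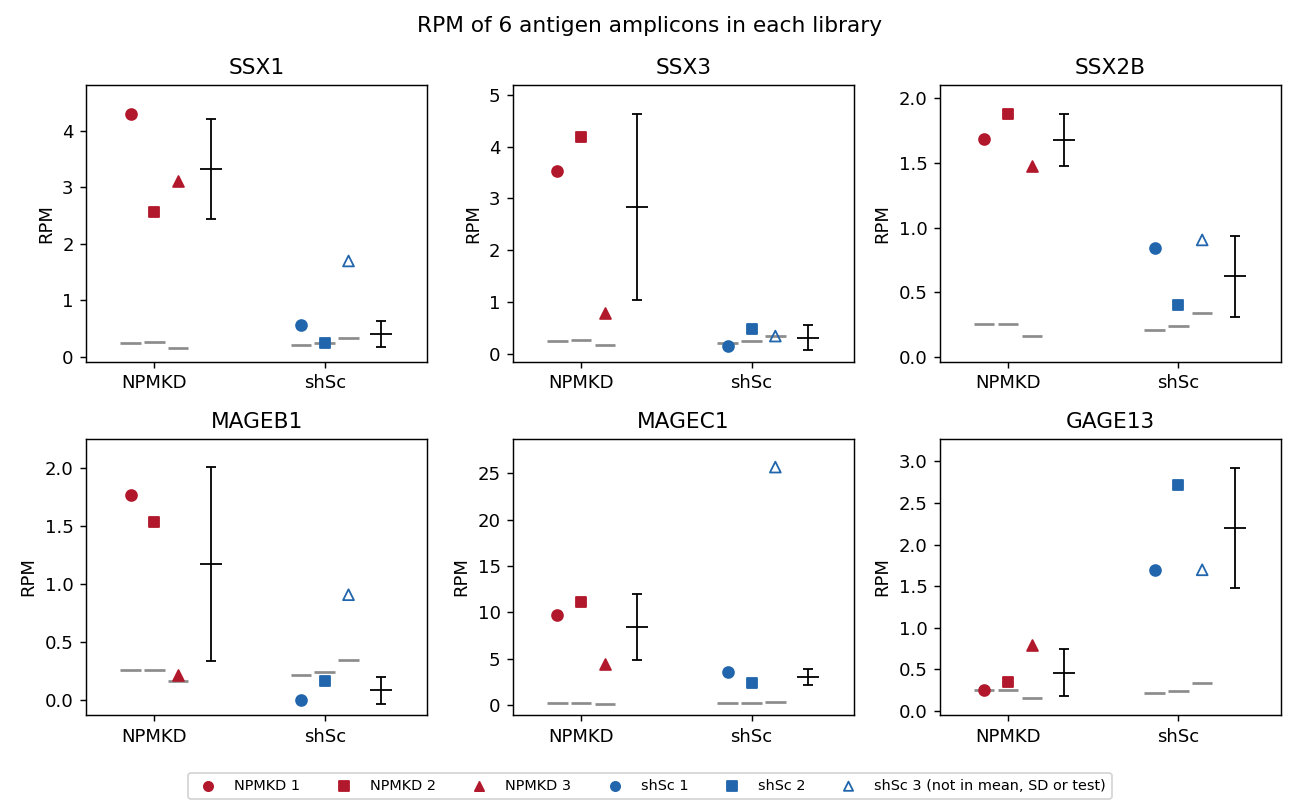
RPM of SSX1, SSX3, SSX2B, MAGEB1, MAGEC1 and GAGE13 in each library, with the mean ± SD of each group in black (n = 3 NPMKD, n = 2 shSc; shSc replicate 3 is hollow and left out of the mean) and gray dashes at the RPM of 3 reads. NPMKD lies above shSc replicates 1 and 2 in each panel but that of GAGE13, where it lies below, and the hollow MAGEC1 point at 25.672 RPM lies above all others.

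The type I MAGE families share a MAGE homology domain that binds RING ubiquitin ligases. Of 12 MAGEA members 7 were reported and tested and 0 passed, with 5 positive and 2 negative fold changes and a median of 0.23 on the log2 scale. With all 6 libraries that median was -0.27. MAGEA9B, whose amplicon is also listed for MAGEA9, was at 77.2, 49.4 and 39.9 RPM in NPMKD, against 103.1, 49.0 and 87.0 RPM in shSc replicates 1, 2 and 3 (log2 fold change -0.41, standard error 0.40). Replicate 1 of either group had more of it than replicate 2. MAGEA3, a target of cancer vaccines that binds TRIM28, was at 74.4, 67.1 and 34.7 RPM in NPMKD, against 45.4, 40.8 and 41.6 RPM in shSc, so that NPMKD replicates 1 and 2 lay above and NPMKD replicate 3 below every shSc library. Its log2 fold change was 0.37 (SE 0.36, adjusted p = 0.898 by limma).

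MAGEA12 had the same arrangement, with 34.4, 33.6 and 14.4 RPM in NPMKD, against 18.8, 21.4 and 18.9 RPM in shSc (log2 fold change 0.34, standard error 0.42). MAGEA6 was at 2.86, 5.799 and 2.79 RPM in NPMKD, against 0.916, 6.30 and 3.51 RPM in shSc, and MAGEA3 and MAGEA6 together were at 77.2, 72.9 and 37.5 RPM in NPMKD, against 46.3, 47.1 and 45.1 RPM in shSc. The sum thus moved as MAGEA3 did, whose row took most of its reads. MAGEA2B was at 16.5, 20.6 and 13.2 RPM in NPMKD, against 10.9, 19.7 and 36.9 RPM in shSc, and MAGEA2, with the same coding sequence, at 4.63, 17.4 and 11.5 RPM in NPMKD, against 3.38, 27.1 and 18.4 RPM in shSc. Replicate 1 of either group had the lowest share of MAGEA2 reads in these copies, so the split between identical copies varied between libraries. Their sum was 21.1, 38.03 and 24.8 RPM in NPMKD, against 14.2, 46.8 and 55.3 RPM in shSc. MAGEA5, the pseudogene, was at 1.68, 2.73 and 3.69 RPM in NPMKD, against 2.19, 2.07 and 36.9 RPM in shSc, and its log2 fold change was 0.23 over 5 libraries and -1.04 over 6. The other 5 MAGEA genes (MAGEA1, MAGEA4, MAGEA8, MAGEA10 and MAGEA11) were at 0.479 RPM or less in each library.

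**Figure D3:**
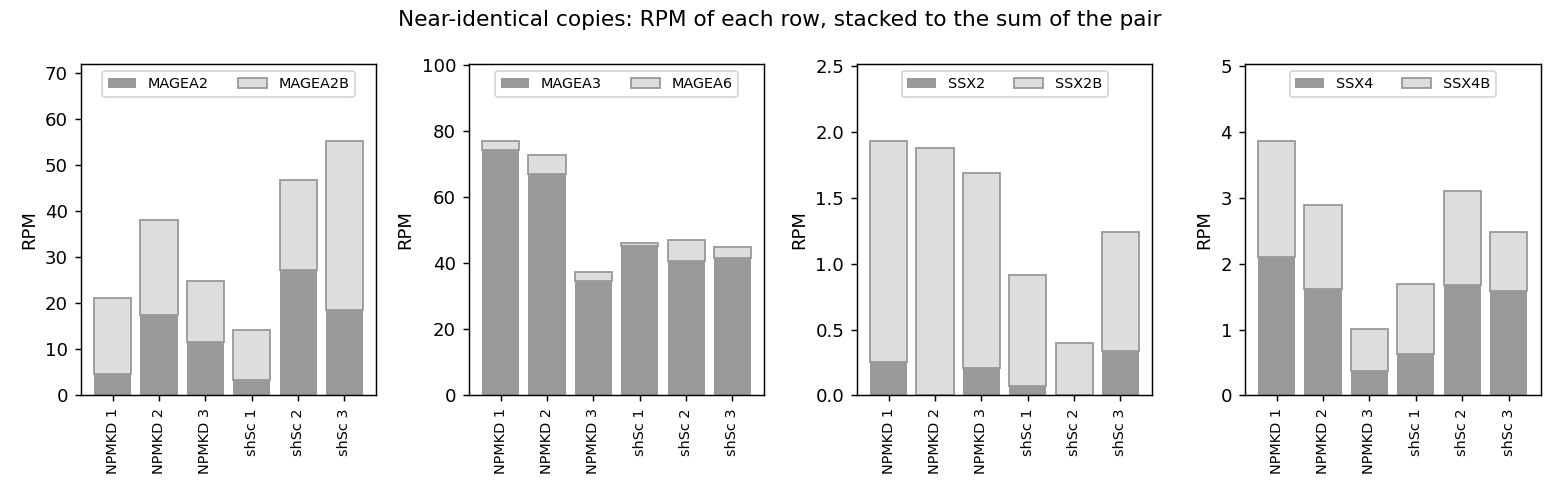
RPM of the rows of 4 pairs of near-identical copies, stacked to the sum of the pair, in each library (NPMKD left of shSc). The share of each row differed between libraries for MAGEA2 and MAGEA2B, while SSX2B took most reads of its pair in each library.

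MAGEB and MAGEC genes were nearer to the limit of detection. MAGEB1 was at 1.77, 1.54 and 0.211 RPM in NPMKD (21, 18 and 4 reads), against 0 and 0.160 RPM in shSc replicates 1 and 2 (0 and 2 reads) and 0.905 RPM (8 reads) in shSc replicate 3. The groups did not overlap in 5 libraries but did with shSc replicate 3. MAGEB1 reached 1 RPM in NPMKD replicates 1 and 2 alone and entered the test only through them. Its fitted log2 fold change of 1.37 (adjusted p = 0.696 by limma) depends on the pseudocount, and no conclusion is drawn from it. MAGEB2 was at 5.47, 10.8 and 5.48 RPM in NPMKD, against 2.40, 10.0 and 5.09 RPM in shSc, and both groups held 1 high library (log2 fold change 0.42). MAGEC1 was at 9.76, 11.1 and 4.43 RPM in NPMKD, against 3.60 and 2.39 RPM in shSc replicates 1 and 2 and 25.7 RPM in shSc replicate 3. Its log2 fold change of 1.28 (SE 0.46, adjusted p = 0.607 by limma) became 0.31 (adjusted p = 0.935) with that library, which was the highest of all. MAGEC2, a partner of TRIM28, was at 8.58, 11.8 and 7.01 RPM in NPMKD, against 6.84, 5.98 and 16.5 RPM in shSc, and its log2 fold change was 0.45 over 5 libraries and 0.02 over 6.

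The GAGE family encodes small acidic proteins of unknown cellular role, first found as targets of T cells on melanoma. Of 10 members 9 were reported and 8 tested, 0 passed, and the median log2 fold change was -0.23. The rows named GAGE2D, GAGE12C and GAGE12J took 95.2% to 98.4% of all GAGE RPM. GAGE12J was at 180.9, 216.4 and 121.6 RPM in NPMKD, against 147.1, 177.8 and 138.0 RPM in shSc replicates 1, 2 and 3. GAGE2D was at 185.6, 207.5 and 119.0 RPM in NPMKD, against 174.2, 164.3 and 136.8 RPM in shSc. GAGE12C was at 185.4, 206.6 and 121.1 RPM in NPMKD, against 149.9, 184.3 and 144.9 RPM in shSc. In all 3 rows NPMKD replicate 3 was the lowest library and NPMKD replicate 2 the highest, and log2 fold changes lay between -0.03 and 0.06.

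The minor GAGE rows had fold changes of either sign. GAGE13, whose amplicon is listed for no other gene, was at 0.252, 0.341 and 0.790 RPM in NPMKD (3, 4 and 15 reads), against 1.69, 2.71 and 1.70 RPM in shSc replicates 1, 2 and 3 (24, 34 and 15 reads). Every NPMKD library was below every shSc library, with a log2 fold change of -1.51 (SE 0.44, adjusted p = 0.430 by limma; 0.00677 to 1.00 over the alternatives) and of -1.41 over 6 libraries. GAGE2E was at 5.39, 4.09 and 5.11 RPM in NPMKD, against 7.54, 5.90 and 5.77 RPM in shSc, again without overlap (log2 fold change -0.43, standard error 0.34, adjusted p = 0.863). GAGE2A, GAGE12H and GAGE2B had their highest value in shSc replicate 2, with 7.34, 5.58 and 2.71 RPM there, and overlapped between groups. GAGE1 was at 2.02, 2.64 and 2.42 RPM in NPMKD, against 1.34, 2.23 and 2.60 RPM in shSc (log2 fold change 0.35). The 7 minor GAGE rows together were at 9.17, 10.8 and 12.5 RPM in NPMKD, against 11.8, 26.5 and 17.5 RPM in shSc, and these are few reads beside the sum of the family, 561.1, 641.4 and 374.2 RPM in NPMKD against 483.0, 552.8 and 437.2 RPM in shSc.

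**Figure D4:**
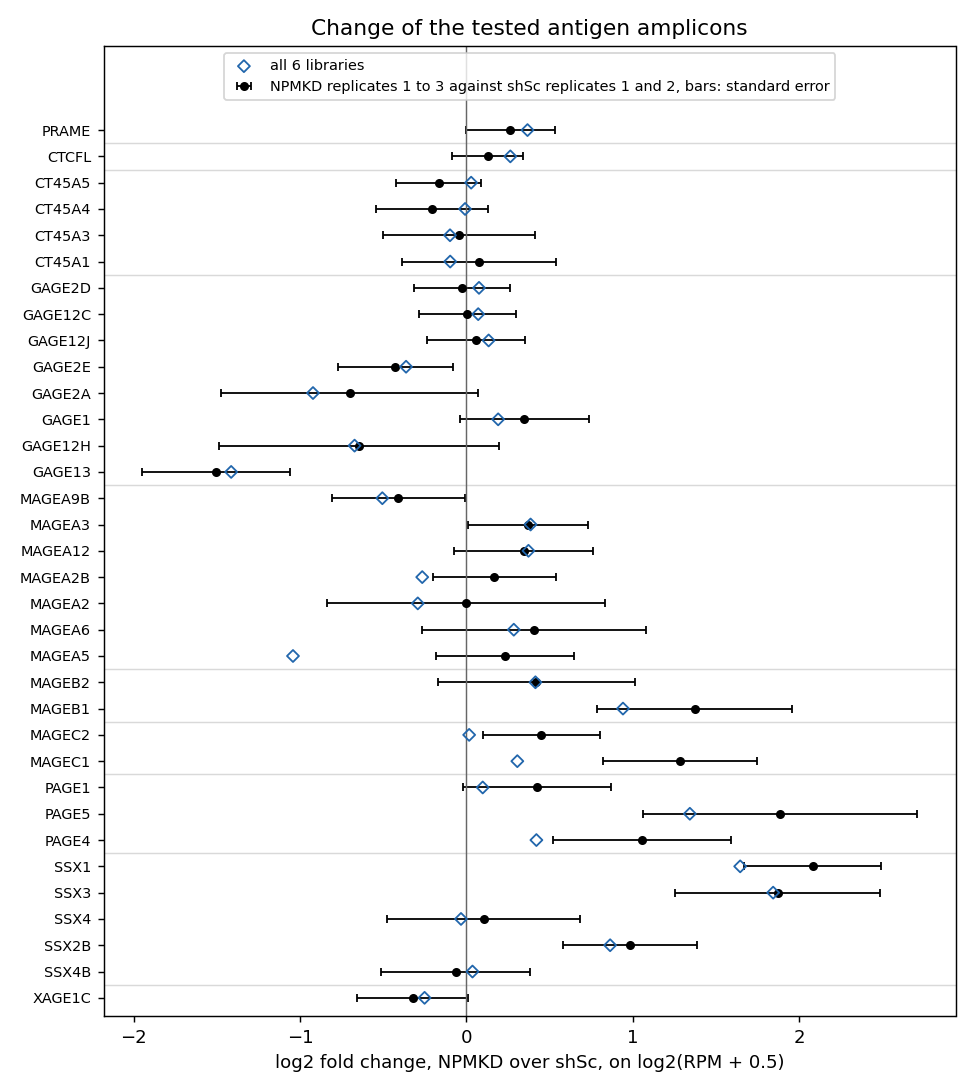
Log2 fold change of NPMKD over shSc for the 34 tested antigen members on log2(RPM + 0.5), by family, for 5 libraries (black, bars are standard errors) and for all 6 (blue diamonds). SSX1 at 2.08 and GAGE13 at -1.51 are the ends of the range, and MAGEA5 and MAGEC1 move most when shSc replicate 3 is added.

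CT45A genes encode nuclear proteins of the germ line. All 4 members were reported and tested, 0 passed, and log2 fold changes lay between -0.21 and 0.08. The row named CT45A5 took 93.5% to 96.7% of the family's RPM, with 276.6, 248.6 and 235.4 RPM in NPMKD, against 350.1, 230.7 and 189.0 RPM in shSc replicates 1, 2 and 3. The shSc libraries spread over a wider range than the NPMKD libraries and enclosed them. CT45A4 was at 6.65, 10.1 and 9.48 RPM in NPMKD, against 9.52, 10.5 and 6.45 RPM in shSc. CT45A3 and CT45A1 ranged from 2.02 to 5.63 RPM and from 0.634 to 1.71 RPM over the 6 libraries, and overlapped between groups.

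PAGE and XAGE genes are relatives of GAGE. Of 6 PAGE members 3 were reported and tested, all with positive fold changes and overlapping groups. PAGE1 was at 8.16, 4.95 and 11.4 RPM in NPMKD, against 4.23, 7.497 and 11.6 RPM in shSc. PAGE5 was at 1.43, 8.87 and 3.003 RPM in NPMKD (17, 104 and 57 reads), against 0, 1.83 and 2.83 RPM in shSc (0, 23 and 25 reads). Its log2 fold change of 1.88 had an SE of 0.82 (adjusted p = 0.705 by limma), and was 0.77 without shSc replicate 1 and 2.995 without shSc replicate 2. PAGE4, a disordered protein known from the prostate, was at 1.01, 2.39 and 3.53 RPM in NPMKD, against 0.423, 1.20 and 4.18 RPM in shSc (log2 fold change 1.06 over 5 libraries, 0.42 over 6). XAGE1C was the only XAGE row reported, at 20.95, 19.95 and 24.6 RPM in NPMKD, against 20.2, 36.8 and 23.5 RPM in shSc, where shSc replicate 2 was the highest (log2 fold change -0.32).

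Summed over the 60 antigen members, reads were at 3797, 4074 and 3797 RPM in NPMKD, against 3139, 3803 and 2970 RPM in shSc replicates 1, 2 and 3, a sum that PRAME dominates. Without PRAME and CTCFL the sums were 1132, 1189 and 812.3 RPM in NPMKD, against 1073, 1037 and 1056 RPM in shSc. NPMKD replicates 1 and 2 lay above and NPMKD replicate 3 below all shSc libraries. The SSX sum was 13.7, 11.8 and 6.64 RPM in NPMKD, against 3.31, 4.39 and 17.9 RPM in shSc, so that shSc replicate 3 was the highest library. SSX5 and SSX6 were high in that library alone. Without these rows, which were left out after their values were seen, the sum was 13.6, 11.5 and 6.59 RPM in NPMKD, against 3.31, 4.23 and 5.77 RPM in shSc.

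The 25 members not reported never exceeded 1 RPM in the 5 libraries, and 6 of them (MAGEB6, MAGEC3, PAGE3, SSX7, SSX8 and XAGE5) had 0 reads in all 6, which allows up to 0.158 to 0.339 RPM. A few were high in shSc replicate 3 alone. MAGEB4 was at 0.084, 0 and 0 RPM in NPMKD, against 0.141, 0 and 52.0 RPM in shSc replicates 1, 2 and 3. MAGEB3 reached 12.7 RPM and SSX5 10.5 RPM in that library, against 0.171 RPM or less and 0.160 RPM or less in the other 5. The amplicon named SSX5 is listed for SSX3 and SSX7 as well. Of the 61 members 5 (8.20%) had 1 RPM or more and at least 5 times the highest other library there, against 2463 of 20802 genes (11.8%). In each of the other 5 libraries 0 members and at most 14 genes did so.

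**Figure D5:**
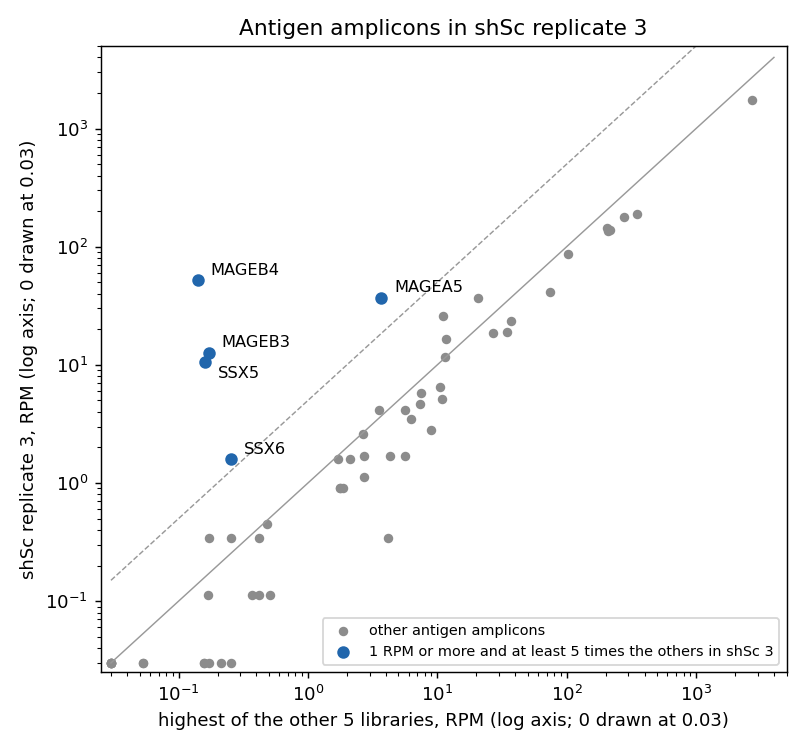
RPM of the 60 antigen amplicons in shSc replicate 3 against the highest of the other 5 libraries (both axes logarithmic, 0 drawn at 0.03); the solid line marks equal values and the dashed line 5 times the others. MAGEB4 at 52.022 RPM lies farthest from the solid line, and MAGEA5, MAGEB3, SSX5 and SSX6 also lie above the dashed line.

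Of 17 germ cell genes measured, 6 were at least 5 times their highest other library in shSc replicate 3, with 1 RPM or more, and 15 were under 1 RPM in the 5 libraries. The same held for 11.8% of all genes, for 5 of 15 lymphoid markers and for 3 of 14 fibroblast and epithelial markers. It held for 0 of 16 erythroid and blast crisis markers of K562. High values in that library were thus not particular to germ cell genes. Of all 17, 5 (DAZL, DDX4, STRA8, DMRT1 and ZPBP) were at 0 in all 6 libraries, while NANOS2, DPPA3 and PRM1 reached 88.7, 50.3 and 43.0 RPM in shSc replicate 3. The list's summed level was 4.32 to 9.09 RPM in NPMKD, against 5.497, 4.068 and 195.7 RPM in shSc replicates 1, 2 and 3. Lymphoid markers summed to 19.4 to 90.9 RPM in NPMKD, against 52.9, 53.9 and 239.6 RPM in shSc. Their part in the values of MAGEC1, MAGEC2 and MAGEA5 in shSc replicate 3 was not tested.

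Other genes of the germ line and of antigen control were counted in the same fit. Of 49 other cancer-testis genes 19 were tested and 0 passed, with 10 positive fold changes and a median of 0.05 on the log2 scale. ACTL8, an actin-like protein, did not overlap between groups, with 5.39, 3.33 and 1.16 RPM in NPMKD, against 11.6, 23.4 and 34.04 RPM in shSc (log2 fold change -2.35, standard error 0.58, adjusted p = 0.282 by limma). Type II MAGE genes are expressed in many tissues, and of these 5 were tested and 0 passed. NDN, a growth suppressor of neurons, was at 20.9, 15.5 and 8.27 RPM in NPMKD, against 2.33, 2.31 and 76.0 RPM in shSc (log2 fold change 2.36, adjusted p = 0.1397 by limma, and 0.878 over 6 libraries). ACTL8 and NDN were chosen after their values were seen.

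Enzymes that write and remove DNA methylation were tested in 17 of 18 cases, with 0 passing, 5 positive fold changes and a median of -0.15. Over the 5 libraries 4 of them (DNMT3B, TDG, MBD2 and ZBTB38) were higher and 2 (DNMT1 and MBD4) were lower in NPMKD without overlap. Of all tested genes 12.3% were higher and 10.4% were lower in this way, so the counts are not read as a result about the list. DNMT1, which maintains methylation after replication, was at 119.0, 113.2 and 144.1 RPM in NPMKD, against 216.2, 244.8 and 163.0 RPM in shSc replicates 1, 2 and 3. It was lower in every NPMKD library than in every shSc library, with a log2 fold change of -0.88 (SE 0.23, adjusted p = 0.317 by limma, and 0.587 over 6 libraries). UHRF1, which brings DNMT1 to replicated DNA, was at 82.8, 47.8 and 34.6 RPM in NPMKD, against 89.5, 80.1 and 126.3 RPM in shSc, and its groups overlapped. TDG, a glycosylase of active demethylation, was at 127.5, 121.5 and 115.8 RPM in NPMKD, against 83.0, 107.3 and 156.4 RPM in shSc (log2 fold change 0.36, adjusted p = 0.820 by limma), so that shSc replicate 3 was the highest library. All 19 repressors of germline genes were tested, 0 passed, and their median was 0.10. TRIM28, a corepressor and a partner of MAGEA3 and MAGEC2, was at 909.0, 567.0 and 704.0 RPM in NPMKD, against 678.6, 620.3 and 604.9 RPM in shSc (log2 fold change 0.14, adjusted p = 0.944). Of the partners and paralogs of the antigens 17 were tested and 0 passed, with a median of 0.21. Fibroblast and epithelial markers were tested in 5 of 14 cases, again with 0 passing.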

How the data were processed

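RNA of 3 NPMKD and 3 shSc libraries was measured. The authors made AmpliSeq libraries from DNaseI-treated RNA, read them on an Ion Proton with alignment to hg19 by the Torrent software, and deposited RPM per gene from the AmpliSeqRNA plugin (its version: not given in the sources used here). Rows of 10 spike-ins held no read and were dropped. Dividing each RPM by its library's step returned a whole read (tolerance 0.1) for 100% of values. The depth is given above.

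Genes with 1 RPM or more in at least 2 of 5 libraries were tested on log2(RPM + 0.5) by limma (3.58.1, run in R version 4.3.3) with a variance trend and Benjamini-Hochberg adjustment at 0.05. On this scale changes of low genes come out too small. Recovered reads were also tested with edgeR 4.0.16 and DESeq2 1.42.0. Other alternatives were all 6 libraries, quantile normalization, TMM factors, no variance trend, a filter of 5 RPM or none, pseudocounts of 0.1 and 1, a replicate block and each library left out.

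Members and lists were chosen with earlier results of these data known. Named are PRAME, CTCFL, SSX1 and NPM1, the 4 reported members of each family with the highest mean RPM, members without overlap and a log2 fold change of 1 or more in size, members high in shSc replicate 3, and up to 3 abundant genes of each list. Other named genes were chosen after their values were seen. Gene positions are from GENCODE mapped to GRCh37 and promoters from RefSeq, matched by symbol or other name, and made into tables with Python 3.11.15, pandas 2.3.3 and Biopython 1.88; CT45A5 was not matched. Amplicon sequences were not used here.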

Additional observations from a re-analysis of the deposited data

Results flagged for a closer look

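Of the 61 members 5 (8.20%) were far above their level in the other libraries in shSc replicate 3, which the comparison did not use, against 11.8% of all genes. MAGEB4 was at 52.022 RPM (460 reads), against at most 0.141 RPM in the other 5 libraries. MAGEA5 was at 36.868 RPM, against at most 3.688 RPM. MAGEB3 was at 12.666 RPM, against at most 0.171 RPM, SSX5 at 10.518 RPM, against at most 0.16 RPM, and SSX6 at 1.583 RPM, against at most 0.256 RPM. The SSX5 row shares its amplicon with SSX3 and SSX7 in the panel's list. In the annotation on GRCh37, MAGEB4 and MAGEA5 lie in 1 exon, MAGEB3 has 5 exons with its coding part in 1, and SSX5 and SSX6 have 8 and 6 exons.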

How the results depend on the processing

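Each of 16 alternatives was applied to the counts, the median of the members, NPM1 and those of the 28 named members that passed its filter (17 with the filter of 5 RPM, 25 to 28 otherwise). Of the 28, 16 kept the sign of their fold change wherever they were tested. The count of passing genes (15) became 3 with all 6 libraries, 2 without a filter, 7 with a filter of 5 RPM, 26 with quantile normalization, 190 with DESeq2 and 1698 with a replicate block. It was 5 without NPMKD replicate 1, 2 without NPMKD replicate 2 or 3, and 0 without shSc replicate 1 or 2. The count of passing members (0) became 1 with DESeq2 (SSX1) and 7 with the block (GAGE13, MAGEA3, MAGEB1, MAGEC1, PAGE5, SSX1 and SSX3), and was 0 with each other alternative. The median over the members was 0.012 to 0.50 when 1 library was left out, the highest without shSc replicate 2. NPM1 passed with DESeq2 (log2 fold change -1.71) and with the block (-1.46).

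The replicate numbers were not taken to pair the libraries. Deviations from the group means correlated at 0.42 for number 1, 0.30 for number 2 and 0.05 for number 3, and NPMKD replicate 3 correlated best with shSc replicate 2 (0.06). NPMKD replicate 1 correlated at -0.32 with shSc replicate 2, and NPMKD replicate 2 at -0.35 with shSc replicate 1. Numbers 1 and 2 thus resembled their own number across the groups, and number 3 did not. A batch shared by number is not described in the sources and was not tested, and the main fit leaves it out. The counts of passing genes and members depend on this choice, as given above for the block. NPMKD replicate 3 has no partner in the blocked fit of 5 libraries.

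Signs turned for 12 named members, whose fold changes lay between -0.41 (MAGEA9B) and 0.42 (MAGEB2). With all 6 libraries CT45A1 had a log2 fold change of -0.10, CT45A5 0.028, GAGE2D 0.075, MAGEA2B -0.27, MAGEA5 -1.04 and SSX4 -0.033. With quantile normalization CT45A1 had -0.047, CT45A3 0.0016, GAGE12C -0.0087 and SSX4 -0.028. CT45A3 and GAGE2D had 0.046 and 0.020 with edgeR and 0.042 and 0.014 with DESeq2, and GAGE2D had 0.21 with the block. With 1 library left out, CT45A1 ranged from -0.28 to 0.22, CT45A3 from -0.34 to 0.30, CT45A5 from -0.47 to 0.13, GAGE12C from -0.15 to 0.23, GAGE12J from -0.12 to 0.29, GAGE2D from -0.19 to 0.21, MAGEA2B from -0.25 to 0.58, MAGEA9B from -0.94 to 0.12, MAGEB2 from -0.51 to 1.35, SSX4 from -0.37 to 0.58 and XAGE1C from -0.75 to 0.10. The causes were not tested. Where 1 shSc library was left, it was assumed to vary like the NPMKD libraries. Depth limits the reported SSX, MAGEB1 and GAGE13 rows, which rest on 59 reads or fewer in each library.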
